A study of Mus musculus with 2 samples.

Results

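The ZFP36, IER and GADD45 early response genes are 8 mouse genes, Zfp36, Zfp36l1, Zfp36l2, Ier2, Ier3, Ier5, Gadd45b and Gadd45g. They were taken by name, as every probe set that the array annotation gives to one of these symbols, which found 15 of 45037 probe sets, controls left out, and 8 of the 18193 annotated genes. Their mRNA was measured on Affymetrix mouse genome arrays in HT22, an immortalised line of mouse hippocampal origin. One culture had been exposed for 1 h to J147, a neurotrophic compound, and its control had been exposed for 1 h to the DMSO vehicle. Both were plated in DMEM with 10% fetal calf serum, so serum was present in both groups. The sample labels give the J147 concentration as 10 mM and the methods of the study give 10 μM. The title of the control sample names the DMSO vehicle, while its treatment label reads untreated.

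With 1 array per group, nothing below could be checked against replicates, p-values were not computed, and J147 cannot be told apart from whatever else differed between its culture and the vehicle culture. RNA was taken from whole cultures, in which fewer expressing cells and less RNA per cell cannot be told apart either. A gene was counted as above the floor, the lowest value of the table, where a probe set exceeded it by more than 0.01 log2 units on at least 1 array. By this count 2 of 9 neuronal marker genes, Tubb3 and Syp, were above it. The defining markers Syt1, Map2 and Snap25 sat at that floor, which is no evidence that a transcript is absent. All 7 fibroblast markers were above it, as were 2 of 7 astrocyte, 2 of 7 microglia, 0 of 4 oligodendrocyte and 0 of 5 endothelial markers. The scaled intensities of the fibroblast markers summed to 551163 with J147 and 570428 with vehicle, those of the neuronal markers to 6214 and 5316, those of the astrocyte markers to 72339 and 70130, and those of the microglia markers to 3843 and 5310, each with J147 given first. Single genes made up most of the last 3 pairs of sums. Tubb3 had 6080 with J147 and 5182 with vehicle, and Gja1, an astrocyte marker, had 67738 and 65868. Of the 2 microglia markers, Csf1r had 631 with J147 and 633 with vehicle, and Tmem119 had 3212 and 4677. A difference between such sums is therefore largely that of 1 gene. Whether the cell makeup had a part in the differences below was not tested. The log2 difference between the arrays had an SD of 0.18 over the 22545 scored probe sets, and 11 housekeeping genes lay between -0.13 and 0.05. Control probe sets had median log2 differences of -0.63 (ribosomal RNA), -0.15 (labelling spikes) and 0.13 (hybridization spikes). The 3′ minus 5′ log2 difference of control probe sets, which reads RNA integrity, had a J147 minus vehicle value of -0.06 for Gapdh and of -0.03 for Actb. What part these controls have in the differences below was not tested.

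Early response genes are transcribed soon after a cell meets a growth factor, a depolarising stimulus or stress, from transcription factors that are already present, and their mRNAs are mostly short-lived. The ZFP36 proteins help to end such a response. They bind AU-rich elements in mRNA through a pair of CCCH zinc fingers and recruit the CCR4-NOT deadenylase, which shortens the poly(A) tail and leads to decay. The GADD45 proteins are small acidic proteins that bind the kinase MAP3K4, which acts upstream of p38 and JNK, and they take part in growth arrest and stress responses. The IER genes are named for their rapid induction. IER2 and IER5 are related in sequence and IER3 is not related to them. IER2 is a nuclear protein, IER3 modulates survival and ERK signalling, and IER5 binds the phosphatase PP2A and the heat shock factor HSF1.

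RefSeq promoter windows (build GRCm38.p6) were at hand for 6 of the 8 genes, and the 250 bases before the transcription start of 4 of them are shown because they belong to the members with the largest differences that had a window, Gadd45b, Ier3 and Gadd45g, and to Zfp36, which alone held the CArG box, the site of the serum response factor SRF. Zfp36l2 and Ier2 are named only. The windows are written 5′ to 3′ on the strand of the gene, and capitals mark every match, on either strand, to the motifs described next.
Gadd45b, chr10:80929841-80930090, + strand: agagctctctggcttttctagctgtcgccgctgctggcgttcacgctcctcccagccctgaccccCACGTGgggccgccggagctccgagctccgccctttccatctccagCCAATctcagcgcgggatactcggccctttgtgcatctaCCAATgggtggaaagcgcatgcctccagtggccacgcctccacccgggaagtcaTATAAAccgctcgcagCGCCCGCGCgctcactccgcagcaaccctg
Ier3, chr17:35821463-35821712, + strand: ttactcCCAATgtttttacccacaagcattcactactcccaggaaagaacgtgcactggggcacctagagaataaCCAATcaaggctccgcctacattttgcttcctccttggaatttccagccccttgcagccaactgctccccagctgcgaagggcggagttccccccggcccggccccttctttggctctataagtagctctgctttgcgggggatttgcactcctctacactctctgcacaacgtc
Gadd45g, chr13:51846425-51846674, + strand: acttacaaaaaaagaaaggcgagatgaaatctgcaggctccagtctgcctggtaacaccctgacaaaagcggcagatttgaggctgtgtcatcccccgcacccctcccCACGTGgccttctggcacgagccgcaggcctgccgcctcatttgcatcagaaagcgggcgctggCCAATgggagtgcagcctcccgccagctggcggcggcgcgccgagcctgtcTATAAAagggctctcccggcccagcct
Zfp36, chr7:28379229-28379478, - strand: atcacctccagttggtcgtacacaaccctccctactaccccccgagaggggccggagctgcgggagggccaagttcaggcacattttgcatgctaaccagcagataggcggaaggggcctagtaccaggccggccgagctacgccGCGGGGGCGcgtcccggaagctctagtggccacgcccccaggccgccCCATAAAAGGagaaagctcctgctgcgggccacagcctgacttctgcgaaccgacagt

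The motifs searched on both strands were the CArG box, the core TGACG of the cyclic AMP response element, the EGR site GCGNGGGCG, the TATA box TATAAA, the CCAAT box CCAAT and the E-box CACGTG. The CArG box was in 1 of the 6 windows, at bases -58 to -49 of Zfp36, and in 1.47% of all 32851 windows of this length in the table. The EGR site was in Zfp36 at -105 to -97 and, on the opposite strand, in Gadd45b at -30 to -22, and 4.70% of all windows held it. An E-box was in Gadd45b and Gadd45g and in 6.02% of all windows. The TATA box was in Gadd45b, Gadd45g and Zfp36l1 (12.4% of all windows), and CCAAT was in 5 of the 6, all but Zfp36 (33.8% of all windows). In Zfp36l1 the TATA match shares a base with a CCAAT match. TGACG was in none of the 6 and in 17.8% of all windows. These are matches of letters in a short window and say nothing about whether a factor was bound.

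The values are gcRMA intensities on the log2 scale. The lowest value of the table, 2.234, held 46.0% of the probe sets on the J147 array and 46.3% on the vehicle array, counted with the same 0.01 log2 units, and changes there cannot be seen. Each array was scaled to a median of 100, and a probe set was scored if its mean over both arrays was above 100. After scaling the floor lay at 95.1 on the J147 array and 95.4 on the vehicle array, so a scored probe set can be close to it. Of the 15 member probe sets 12 were scored, and each of the 8 genes had at least 1. The 3 that were not scored, 1439054_at and 1451034_at of Zfp36l2 and 1420197_at of Gadd45b, were at the lowest value on both arrays. Brightness differs between probe sets for reasons other than the amount of mRNA, so no level is ranked against that of another probe set, and only differences within a probe set are ordered.

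**Figure D1:**
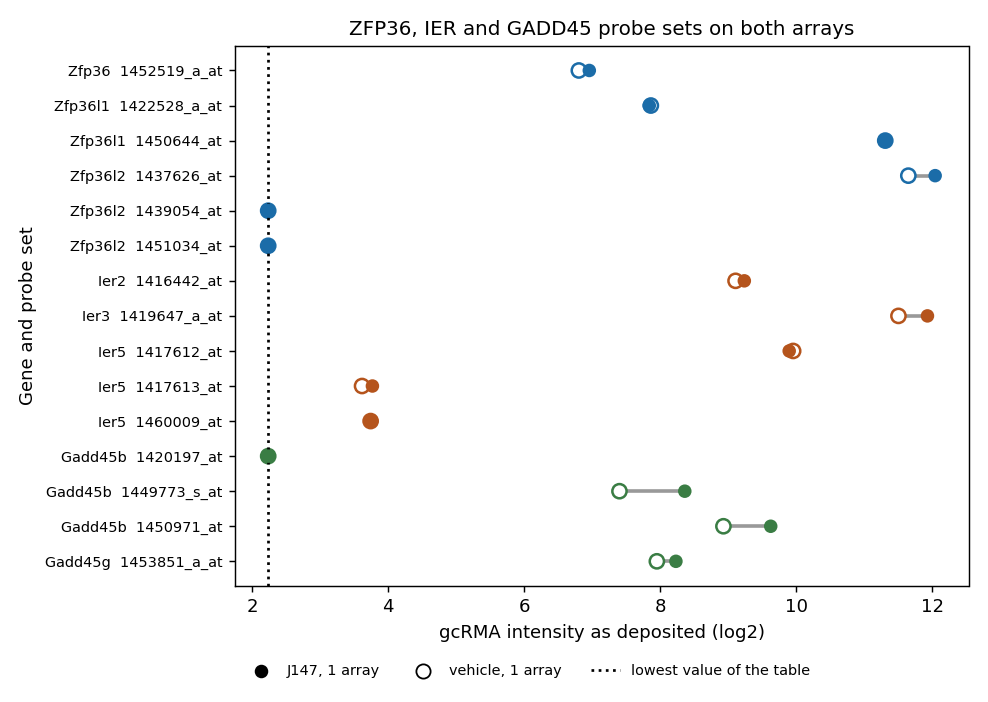
Deposited gcRMA intensity on the log2 scale (horizontal axis) of the 15 probe sets of the 8 genes (vertical axis) on the J147 array (filled circles) and the vehicle array (open circles), 1 array each, with blue for ZFP36, brown for IER and green for GADD45 genes. A dotted line marks the floor of 2.234, where 3 probe sets lie on both arrays, and the longest grey line joins the values of Gadd45b probe set 1449773_s_at, 8.36 with J147 and 7.40 with vehicle.

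Of the GADD45 genes, Gadd45b was higher with J147 by both of its scored probe sets and had the largest difference of the 8 genes. Gadd45b had a log2 intensity of 9.62 with J147 and 8.93 with vehicle by its brightest probe set, 1450971_at. This is a log2 difference of 0.69, or 1.61-fold, and none of its 500 neighbours, the scored probe sets closest to it in mean level, differed by as much in either direction (SD of their log2 differences 0.13). Its probe set 1449773_s_at had log2 intensities of 8.36 with J147 and 7.40 with vehicle, 1.94-fold higher, and none of its 500 neighbours differed by as much (SD 0.17). Both probe sets thus had a higher value with J147, while their log2 differences lay 0.27 apart. Over the 5194 genes with at least 2 scored probe sets, the median gap between the 2 brightest was 0.09 and the 95th percentile 0.40, and 721 genes had a gap at least that of Gadd45b. In 12 of these 5194 genes, or 0.231%, both brightest probe sets passed 1.5-fold in the direction of J147, and Gadd45b is 1 of the 12. The suffix _s_at marks a probe set whose probes may also match transcripts of another gene.

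Gadd45g, the family member also known as CR6, had log2 intensities of 8.23 with J147 and 7.95 with vehicle by its single probe set, 1453851_a_at. It was 1.21-fold higher, and 21 of its 500 neighbours in level were at least as high, so the difference lay within the upper end of what probe sets of that level showed. Gadd45a, the p53-regulated relative that is not among the 8 genes, had log2 intensities of 7.90 with J147 and 8.54 with vehicle. It was 1.57-fold lower, with a log2 difference of -0.65, at place 10559 of 10611 scored genes from high to low. Gadd45b was at place 35 and Gadd45g at place 348. The GADD45 genes therefore lay at opposite ends of the list, a difference that cannot be tested with 1 array per group.

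Of the IER genes, Ier3 was higher with J147 and the others had small differences. Ier3 had log2 intensities of 11.93 with J147 and 11.50 with vehicle by probe set 1419647_a_at. It was 1.34-fold higher with a log2 difference of 0.42, and only 1 of its 500 neighbours was at least as high, since bright probe sets varied little (SD 0.12). Ier2 had log2 intensities of 9.24 with J147 and 9.11 with vehicle by its only probe set, 1416442_at. It was 1.09-fold higher, and 65 of its neighbours were at least as high.

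The 3 probe sets of Ier5 gave no common direction. The brightest, 1417612_at, had log2 intensities of 9.90 with J147 and 9.95 with vehicle, a log2 difference of -0.06. Probe set 1417613_at had 3.77 with J147 and 3.61 with vehicle, a log2 difference of 0.15, and 1460009_at had 3.74 on both arrays and a log2 difference of -0.01. All 3 lay well inside the range of their neighbours in level, of which between 129 and 296 differed by at least as much.

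Of the ZFP36 genes, Zfp36l2 was higher with J147 by the only probe set that measured it, while Zfp36l1 was alike on both arrays. Zfp36l2, an mRNA decay factor known for its part in blood cell development and oocyte maturation, had log2 intensities of 12.04 with J147 and 11.65 with vehicle by probe set 1437626_at. The log2 difference was 0.39, or 1.31-fold, and 5 of its 500 neighbours were at least as high (SD 0.12). Its other 2 probe sets were at the lowest value on both arrays and so cannot check it. Zfp36, which encodes tristetraprolin and is the member best known as an early gene, had log2 intensities of 6.96 with J147 and 6.80 with vehicle by its only probe set, 1452519_a_at. It was 1.11-fold higher, and 83 of its neighbours were at least as high, so it did not stand apart from other probe sets of its level.

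Zfp36l1, also known as butyrate response factor 1, had log2 intensities of 11.31 on both arrays by its brightest probe set, 1450644_at, a log2 difference of -0.01. The other, 1422528_a_at, had 7.84 with J147 and 7.86 with vehicle, a log2 difference of -0.03. Its 2 probe sets thus gave the same answer, with a gap of 0.02 between their log2 differences.

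**Figure D2:**
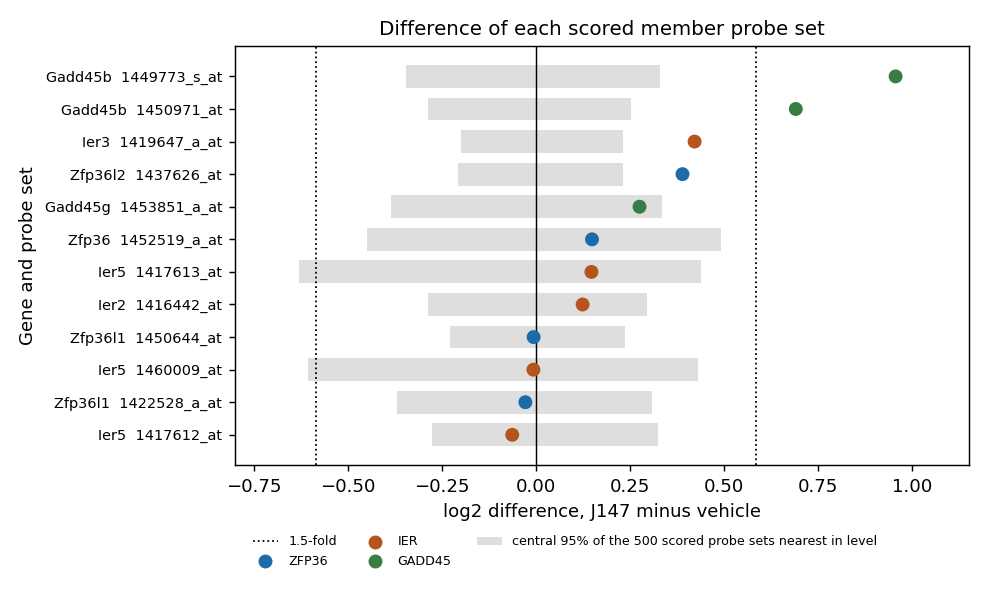
Coloured points give the log2 difference of J147 minus vehicle (horizontal axis) for the 12 scored probe sets of the 8 genes (vertical axis, largest at the top), over grey bars for the central 95% of the log2 differences of their 500 neighbours in level. Dotted lines mark 1.5-fold, which only the Gadd45b probe sets pass, at 0.96 and 0.69, and the Ier3 and Zfp36l2 points, at 0.42 and 0.39, lie outside their grey bars.

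Read by the brightest probe set of each gene, 1 of the 8 genes, Gadd45b, passed 1.5-fold in the direction of J147 and 0 passed it in the direction of vehicle. Of all 10611 scored genes, 0.556% were that much higher and 0.810% that much lower. At 2-fold, 0 of the 8 were higher or lower, against 0.0660% higher and 0.0754% lower among all scored genes. Counted as probe sets, 2 of the 12 were past 1.5-fold with higher values for J147 and 0 with lower ones, against 0.856% and 0.781% of all scored probe sets. The 2 are both of Gadd45b and are not independent of each other. The 8 genes and the lists below were chosen with earlier results of these data known. Counts set beside these shares are therefore a description only.

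The median log2 difference of the 8 genes was 0.21, against -0.00 for all scored genes, and 6 of the 8 were above 0. By family it was 0.15 for the 3 ZFP36 genes, 0.12 for the 3 IER genes and 0.48 for the 2 GADD45 genes. In order, the log2 differences were highest for Gadd45b, then Ier3, Zfp36l2, Gadd45g, Zfp36, Ier2, Zfp36l1 and Ier5. Only the step between Gadd45b and Ier3, of 0.27, was larger than the combined SD of the neighbours of both, 0.18. That SD is a spread over other probe sets and not an error of either gene. The 2 scored probe sets of Gadd45b also lay 0.27 apart. No other step exceeded its own combined SD, so Ier3 and Zfp36l2, for example, 0.03 apart, are not put in order here. By rank among all scored genes, Ier3 was at place 122, Zfp36l2 at place 154, Zfp36 at place 1026 and Ier2 at place 1293, while Zfp36l1 was at 5738 and Ier5 at 7511.

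Of scored genes within 1 log2 unit of Gadd45b in mean level, those nearest to it in log2 difference were the homeobox gene Tgif1 (0.68), the Krüppel-like factor gene Klf7 (0.70) and the potassium channel gene Kcnn4 (0.73). With 2 arrays this likeness rests on a single difference per gene.

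The deadenylation and decay machinery that ZFP36 proteins act through had no gene past 1.5-fold by its brightest probe set. Of 23 scored genes, which encode subunits of CCR4-NOT and PAN2-PAN3, decapping factors and exonucleases, 0 were at least 1.5-fold higher and 0 lower. Of all scored genes 0.556% were that much higher and 0.810% that much lower, so 0 of 23 is near that share. Their median log2 difference was -0.01, and the largest were -0.22 for the deadenylase gene Pan2 and -0.21 for Edc3, an enhancer of decapping. Dimmer probe sets differed by more. The second of Xrn1, an exonuclease, had a log2 difference of 0.58 and the lowest of Cnot4, a ubiquitin ligase of the complex, had -0.50, both named after their values were seen. By the probe set with the largest difference of each gene the median was -0.11. By brightest probe sets the same held for 11 scored genes of other proteins that bind AU-rich or related elements, with 0 higher, 0 lower and a median of -0.07. Their largest were -0.21 for Rc3h2, a relative of Roquin, and -0.19 for Pum2, and a dimmer probe set of Elavl1, which encodes the mRNA-stabilising HuR, had -0.46. The adaptors of the BTG and TOB family also recruit CCR4-NOT. Of the 4 scored, 0 were higher by 1.5-fold and, against 0.810% of all scored genes, 1 was that much lower. This was Btg2, an antiproliferative gene, with log2 intensities of 5.71 with J147 and 7.08 with vehicle at its brightest probe set, 2.61-fold lower, while its other probe set had a log2 difference of -0.00. Here and below, the levels of dimmer probe sets of listed genes are not given, and one near the floor could not show a change. The median of the 4 was -0.22. With no filter on intensity it became 0.02 over 5 genes. That is the value of Btg4, which was near the floor (2.31 with J147 and 2.28 with vehicle).

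Of 20 genes whose AU-rich transcripts are known to be bound by ZFP36 proteins, 14 were scored. With J147, 3 were higher by 1.5-fold or more and 0 were lower by as much, against 0.556% and 0.810% of all scored genes. Plaur, the urokinase receptor, had log2 intensities of 8.93 with J147 and 7.93 with vehicle, 1.99-fold higher. Pim1, a serine/threonine kinase, had 6.73 with J147 and 5.85 with vehicle, 1.84-fold higher, while its other probe set had a log2 difference of -0.00. Ptgs2, the inducible cyclooxygenase, had 9.86 with J147 and 9.05 with vehicle, 1.75-fold higher, and by its second probe set the log2 difference was 0.83. The median of the 14 was 0.01. The transcripts that are best known as targets, Tnf, Il1b, Il6, Il10 and Cxcl2, were at the lowest value on both arrays, so they give no answer. Many of these genes are themselves early response genes. The list was chosen with earlier results of these data known, so its count beside the shares of all scored genes is a description only.

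Against 0.556% and 0.810% of all scored genes, 0 of 9 scored partners of the GADD45 proteins were at least 1.5-fold higher and 1 was lower. This was Cdkn1a, the cyclin-dependent kinase inhibitor p21, with log2 intensities of 10.88 with J147 and 11.61 with vehicle, 1.67-fold lower. By its second probe set the log2 difference was -0.69. The median of the 9 was -0.00. Of 8 scored partners of the IER proteins, 0 were past 1.5-fold in either direction, near the shares of all scored genes, with a median of 0.05. The largest differences by brightest probe set were 0.21 for Ppp2r2a, a regulatory subunit of PP2A, and -0.15 for Cdc25b, a phosphatase that activates cyclin-dependent kinases. The probe sets of PP2A subunits did not give 1 direction, since another of Ppp2r2a had -0.30, and those of Ppp2r5c lay between -0.19 and 0.58. Of 15 scored transcription factors, cofactors and kinases that act upstream of early response genes, 0 were past 1.5-fold either, with a median of -0.04. This count too is near the shares of all scored genes. Smad3 had a log2 difference of 0.39 by its brightest probe set and 0.00 by the other scored one, and Mrtfa, a cofactor of SRF, had -0.29.

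The EGR family, like the 8 genes a set of early response genes, included larger differences than either scored probe set of Gadd45b. Of 5 scored EGR and NAB genes, 2 were at least 1.5-fold higher, against 0.556% of all scored genes. These were Egr3, by 7.98-fold, and Egr1, by 2.49-fold. The median of the 5 was 0.57, which is the value of Egr2 by its brightest probe set (3.53 with J147 and 2.95 with vehicle). The other scored probe set of Egr2 had a log2 difference of 0.04. Of 7 scored AP-1 genes, 2 were at least 1.5-fold higher, also against 0.556%. These were Maff by 1.83-fold and Fosl1 by 1.69-fold, between the folds of the Gadd45b probe sets, and the median of the 7 was 0.03. Fosb and Atf3 were at the lowest value on both arrays, so they give no answer. Fos, 1 of the 7, was close to it (2.46 with J147 and 2.62 with vehicle). The EGR and AP-1 lists are short and were chosen with earlier results of these data known. Whether they differ from the 8 genes cannot be tested here.

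**Figure D3:**
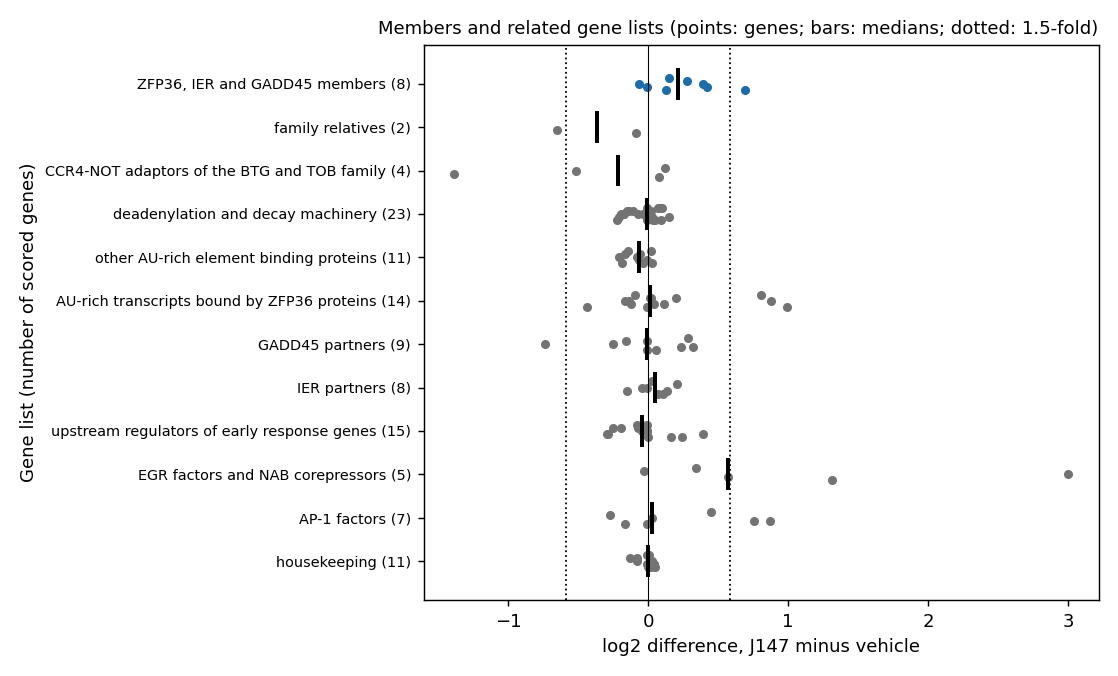
Each point is a scored gene of the 8 members or of 11 related lists (vertical axis, how many were scored in brackets), placed by its log2 difference of J147 minus vehicle (horizontal axis), with black bars for medians and dotted lines for 1.5-fold. The members, in blue, have a median of 0.21, the decay machinery lies between -0.22 and 0.15, and the farthest point to the right is Egr3 of the EGR list, 7.98-fold higher.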

How the data were processed

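The authors deposited log2 intensities, made with gcRMA in R, a method that estimates background from probe sequence. Affymetrix Expression Console 1.0 is also named in the submitters' processing notes. The gcRMA version and a genome build are not given in the sources used here. Each array was scaled here to a median intensity of 100 over 45037 probe sets without 64 controls, and those whose mean exceeded 100 were scored. The platform annotation gives 1 gene symbol to 34945, several to 932 and none to 9160. The gene number of 34741 of the 34945 was found in the RefSeq table of GRCm38.p6, and 0 symbols changed. A gene was read from its scored probe set with the highest mean level.

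The difference is log2 J147 minus log2 vehicle, and at least 1.5-fold is the size counted. With 1 array per group no test was run, and the number of arrays limits the precision. Each difference was set beside those of 500 scored neighbours, the closest in mean level. The members and lists were chosen with earlier results of these data known. The genes named are all members, from each list up to 4 genes past 1.5-fold or else the 2 largest differences, genes at the lowest value as such, and the 3 genes nearest to the member with the largest difference. Marker and control genes are named besides, Egr2 and Btg4 because they set a list median, and Fos because it lay near the floor. Listed genes that the annotation used does not name were not analysed here. Alternatives were other scalings, a lowess curve (span 0.3), a pseudocount of 50, other filters, other ways to combine probe sets, and thresholds of 25% and 2-fold. Python 3.11.15, numpy 2.4.6, pandas 2.3.3, statsmodels 0.14.6 and matplotlib 3.10.9 were used. The steps were also run on simulated arrays in which chosen probe sets had a known fold put in without noise. That checks the arithmetic alone and says nothing about precision with 1 array per group.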

Additional observations from a re-analysis of the deposited data

How the results depend on the processing

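The log2 differences of the 15 member probe sets stayed within 1 SD of their neighbours in level (of all scored probe sets, for the 3 at the floor) in all 60 values under another scaling, a lowess curve or a pseudocount. Little movement was possible here, since the scaling itself shifted every difference by only -0.005 and the 3 at the floor had no signal to change. These 60 values are no check on variation between cultures. Of the scored probe sets only 1460009_at of Ier5 changed sign, between -0.01 and 0.02. Gadd45b ranged from 0.69 to 0.71 by 1450971_at and from 0.95 to 0.98 by 1449773_s_at, Ier3 from 0.42 to 0.43 and Zfp36l2 stayed at 0.39. The number of members at least 1.5-fold higher stayed at 1 except by threshold, with 0 at 2-fold and 3 at a threshold of 25% higher. The number lower stayed at 0 in all alternatives. The median of the members ranged from 0.12, without probe sets of the suffixes _x_at, _s_at and _a_at, which left out Zfp36, Ier3 and Gadd45g, to 0.24. Among all scored genes, 59 higher and 86 lower became 130 and 135 by the probe set with the largest difference, 7 and 8 at 2-fold, and 245 and 429 at 25%. Of 372 values of the related lists and of all scored genes, 25 moved by more than 0.1 log2 units or 1.5 times. Of the lists, the BTG and TOB median of -0.22 became 0.02, the value of Btg4 near the floor, without an intensity filter. That median became -0.35 by the largest difference or without the suffixes above. By the largest difference the decay machinery median of -0.01 became -0.11 and the GADD45 partner median of -0.00 became -0.12. The EGR median of 0.57 ranged from 0.34 to 0.83, and the AP-1 median of 0.03 became 0.24 for intensities above 200. Thresholds, filters and choices of probe set change these by construction. No paired analysis was possible because each group has 1 array.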
